A study of Mus musculus with 36 samples.

Results

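The genes described here are 10 ligands, receptors and adhesion molecules with which a macrophage tells a T cell to respond or to stand down: Cd80, Cd86 and Icosl, the coinhibitory ligands Cd274 (PD-L1), Pdcd1lg2 (PD-L2) and Cd276 (B7-H3), Cd40, of the TNF receptor family, Tnfsf9 (4-1BB ligand), of the TNF family, and Lgals9 (galectin-9) and Icam1. They were taken by symbol, out of 49568 gene names in each of the raw count tables, and all 10 had a row in both. They were measured in RAW264.7, a mouse macrophage line that grows in culture, treated with a synthetic 15-mer peptide that copies residues 65–79 of an HLA-DRβ chain. The 65–79*SE peptide carries the sequence of an allele linked to susceptibility to rheumatoid arthritis, the 65–79*PE peptide that of an allele linked to protection, and the peptides differ at a few positions within that stretch.

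There were 36 RNA-seq libraries in 6 groups of 6. In the IFNγ series the groups were PBS, 65–79*SE with IFNγ, and 65–79*PE with IFNγ. In the IL-4 series they were PBS, 65–79*SE with IL-4, and 65–79*PE with IL-4. The titles of the PBS libraries name the cytokine of their series but do not say whether those cells received it. Peptides were given at 100 µg/ml and cytokines at 5 ng/ml for 72 h, with new medium at 48 h, and no group held a peptide without a cytokine. Replicates 1–3 and 4–6 of each group carry different labelling schemes, and the study states that its replicates come from separate experiments, so the sets are kept apart below.

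A T cell that meets antigen on a macrophage needs a second signal. CD80 and CD86 give it through CD28 and take it away through CTLA-4, which binds CD80 more tightly, and ICOSL signals through ICOS. PD-L1 and PD-L2 bind PD-1 and restrain the T cell, and PD-L1 on mouse macrophages is a classic product of IFNγ signalling, whereas PD-L2 is a classic product of IL-4 and STAT6 signalling. CD40 receives help from CD40 ligand on T cells and drives CD80 and CD86, 4-1BB ligand sustains T cells through 4-1BB, galectin-9 binds TIM-3, and ICAM-1 holds the cells together by binding the integrin LFA-1.

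The label of 1 set of libraries went against its data. Of 14 genes known to respond to IFNγ, 14 rose against PBS in 65–79*SE with IFNγ replicates 1–3 and in both sets of 65–79*PE with IFNγ, but 0 rose in the 3 libraries labelled 65–79*SE with IFNγ, replicates 4–6. The mean log2(CPM + 1) of these genes was 2.28–2.35 in those 3 libraries and 2.40–2.51 in the 6 PBS libraries. It was 6.53–6.81 in the other 9 libraries labelled with a peptide and IFNγ. CPM stands for counts per 1000000 counts of a library, after scaling for composition. The 6 PBS libraries of the IFNγ series thus lacked the response to IFNγ. In the IL-4 series the mean log2(CPM + 1) of 12 genes known to respond to IL-4 was 0.33–0.41 in the 6 PBS libraries and 1.65–2.39 in the 12 peptide libraries, although only 6 of the 12 genes passed the filter on low counts, which they could pass through the peptide groups alone. A contrast with PBS therefore holds the cytokine and the peptide together, the contributions of which cannot be told apart, and the contrast of 65–79*SE with 65–79*PE is the one between peptides under the same cytokine.

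Libraries held 20.7 to 63.2 M counts (M, 1000000 counts) in the IFNγ series and 17 to 30.6 M in the IL-4 series, so that 3 counts, the upper limit that a count of 0 allows, stood for 0.0475 to 0.176 CPM, counting error only. Macrophage identity was checked with 8 markers, of which 7 reached a mean of 1 CPM in every set of libraries (Mertk did not). No B cell, fibroblast or epithelial marker reached a mean of 1 CPM in any set. Of 6 T cell markers, Lck alone did, and 4 of the 6 had at most 3 counts in every library of each set. Of 4 dendritic cell markers, Zbtb46 alone did, in 3 of the 4 sets, and the summed level of that list was 0.827–2.59 CPM over all libraries. Protein-coding genes took a share of the counts of 85.1–85.7% in replicates 1–3 and 62.1–69.8% in replicates 4–6 under IFNγ, and of 95.4–97.5% and 78.6–87.4% under IL-4. Rn7s1, a noncoding RNA gene, took at most 0.000791% in replicates 1–3 and 5.59–7.54% in replicates 4–6 under IFNγ. Histone genes held 136–298 CPM and 2418–6362 CPM there, and 222–341 CPM and 3494–15863 CPM under IL-4, before scaling. The part of these differences in the results was not tested.

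The DNA in front of 3 of these genes is printed to set beside their different responses below: Cd274 was higher under both cytokines, Pdcd1lg2 was nearly silent in the IFNγ series and higher in the IL-4 series, and Icam1 was not higher under either. Each run is the 250 bases upstream of the RefSeq gene start on GRCm38.p6, 5′ to 3′ on the gene's strand, and capitals mark a match to 1 of the motifs searched on both strands.
Cd274, chr19:29367188-29367437, plus strand: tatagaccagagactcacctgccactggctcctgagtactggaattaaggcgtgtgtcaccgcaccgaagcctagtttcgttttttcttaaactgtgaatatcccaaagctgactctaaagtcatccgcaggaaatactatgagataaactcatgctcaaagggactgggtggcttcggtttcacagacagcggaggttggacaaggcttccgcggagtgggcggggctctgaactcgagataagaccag
Pdcd1lg2, chr19:29410669-29410918, plus strand: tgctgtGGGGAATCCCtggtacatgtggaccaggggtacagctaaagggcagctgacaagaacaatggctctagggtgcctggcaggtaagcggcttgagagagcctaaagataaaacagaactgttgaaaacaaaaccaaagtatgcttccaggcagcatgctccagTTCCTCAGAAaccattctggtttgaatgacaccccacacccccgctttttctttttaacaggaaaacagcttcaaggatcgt
Icam1, chr9:21015690-21015939, plus strand: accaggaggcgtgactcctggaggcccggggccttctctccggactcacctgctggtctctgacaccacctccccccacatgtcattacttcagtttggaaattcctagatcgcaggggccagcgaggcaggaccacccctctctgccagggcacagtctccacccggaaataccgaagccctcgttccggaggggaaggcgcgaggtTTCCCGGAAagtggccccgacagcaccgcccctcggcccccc
The motifs were the GAS element TTCNNNGAA, found in IFNγ-responsive genes, the STAT6 element, which has the same TTC and GAA ends set 1 base wider apart, the interferon response element, a pair of GAAA blocks 2 bases apart, and the κB element, bound by NF-κB. The Cd274 window held no match. The Pdcd1lg2 window held a STAT6 match, TTCCTCAGAA, at positions −82 to −73 from the start and a κB match, GGGGAATCCC, at −244 to −235. The Icam1 window held a GAS match, TTCCCGGAA, at −42 to −34. For Icam1, as for Cd276, the bases after the RefSeq start were not found in a GENCODE M21 transcript. Positions there are from the RefSeq start only. Of 32851 such windows, 7.02% held the GAS element, 5.85% the STAT6 element, 2.98% the interferon response element and 7.25% the κB element, so a match is common and is a description only. Among the members with a window (7 of 10), Icosl held a κB match and Lgals9 an interferon response element, and Cd80 and Cd276 held none. Cd274 (chr19:29367455-29388095) and Pdcd1lg2 (chr19:29410919-29471161) are neighbours on the same strand, 22.8 kb apart, in GENCODE M21 on GRCm38.

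Under IFNγ, the first question was how peptide and cytokine together moved these ligands away from PBS. In replicates 1–3, 65–79*SE with IFNγ raised Cd86, Cd274, Cd40 and Icosl and lowered Cd80, while Cd276, Tnfsf9, Lgals9 and Icam1 did not pass the test. A gene was called where edgeR's quasi-likelihood test gave an adjusted p below 0.05 and the fold change was above 1.5. Of the 9 members tested 4 rose and 1 fell, where 22.8% of 15343 genes were called (12.6% higher and 10.2% lower). With 65–79*PE and IFNγ the same counts were 4 and 1, and 19.8% of genes were called (10.3% higher and 9.54% lower). Both contrasts use the same 3 PBS libraries. Fewer RNA molecules per cell and fewer cells that make them cannot be told apart in such bulk samples.

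**Figure D1:**
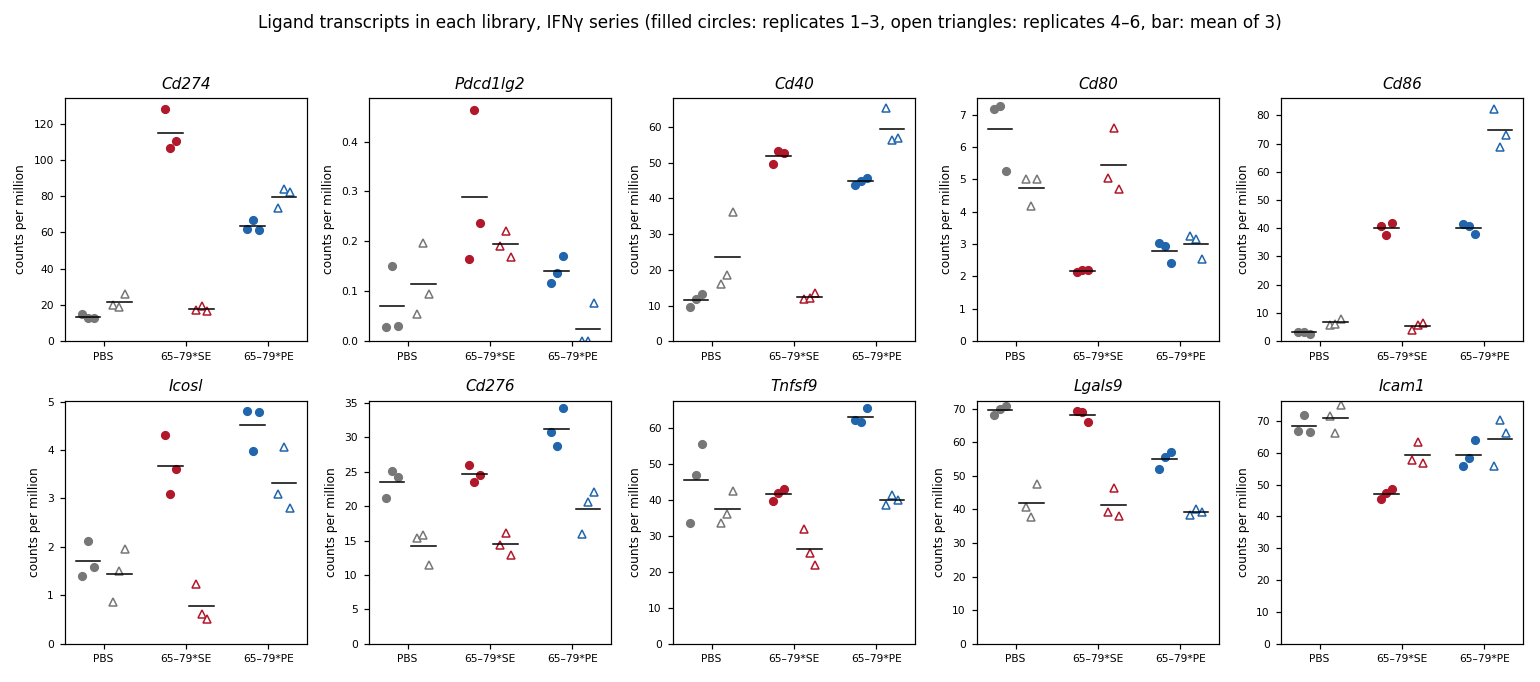
Levels (CPM, linear axis) of the 10 genes in each of the 18 libraries of the IFNγ series, by group, with replicates 1–3 and 4–6 drawn apart. Cd86 was 2.61–3.42 CPM in PBS replicates 1–3 and 37.6–41.9 CPM in both peptide groups of that set, but 3.96–6.31 CPM in the libraries labelled 65–79*SE, replicates 4–6.

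Cd86 had the largest change among the members. It stood at 3.30, 3.42 and 2.61 CPM in PBS replicates 1–3, at 40.6, 37.6 and 41.9 CPM with 65–79*SE, and at 41.5, 40.9 and 38 CPM with 65–79*PE. All 6 peptide libraries were above the 3 PBS libraries, and the peptide groups overlapped. Its log2 fold change was 3.71 ± 0.10 (SE, n = 3 against 3, edgeR adjusted p = 1.44e-12) with 65–79*SE and 3.72 ± 0.10 (edgeR adjusted p = 2.00e-12) with 65–79*PE.

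Cd80, which shares the receptors of Cd86, moved the other way. It stood at 7.19, 7.26 and 5.26 CPM in PBS, at 2.15, 2.20 and 2.19 CPM with 65–79*SE, and at 3.05, 2.94 and 2.41 CPM with 65–79*PE. The PBS libraries were above all 6 peptide libraries, without overlap. It fell by 1.56 ± 0.16 on the log2 scale with 65–79*SE (edgeR adjusted p = 2.05e-06) and by 1.19 ± 0.15 with 65–79*PE (edgeR adjusted p = 2.76e-05).

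Both B7 genes lie on chromosome 16 in mouse, Cd80 on the plus strand and Cd86 on the minus strand. The count of Cd86 per count of Cd80, each divided by its exon length, was 0.464–0.503 in PBS replicates 1–3, 17.3–19.3 with 65–79*SE and 13.8–16 with 65–79*PE, and these 3 ranges did not overlap. Icosl, the ligand of ICOS, was a low gene, at 1.40, 2.12 and 1.59 CPM in PBS, 4.30, 3.10 and 3.62 CPM with 65–79*SE and 4.81, 3.98 and 4.79 CPM with 65–79*PE. Every peptide library was above every PBS library. It rose by a log2 fold change of 1.14 ± 0.19 (edgeR adjusted p = 0.000192) and 1.45 ± 0.19 (edgeR adjusted p = 2.70e-05).

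**Figure D2:**
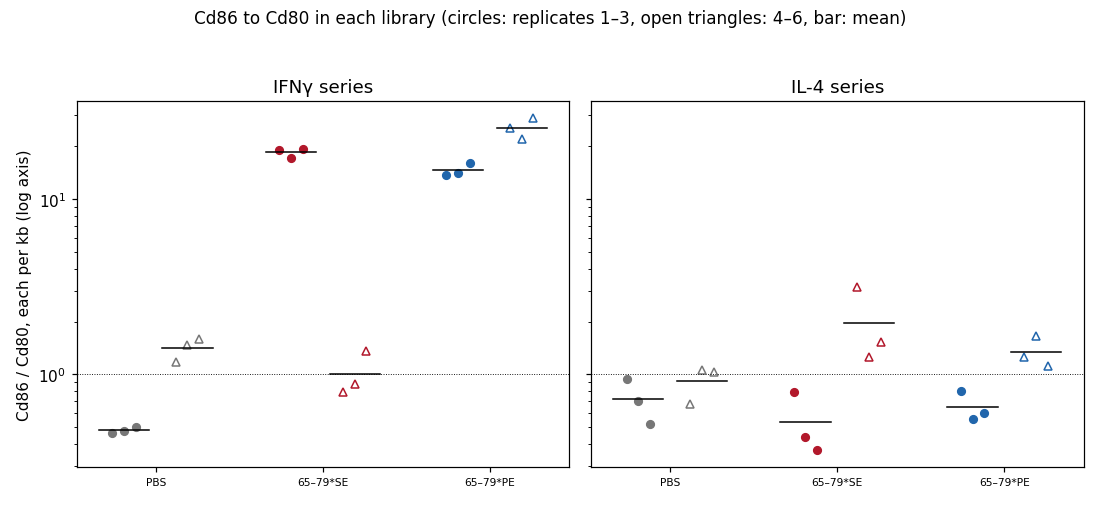
Ratio of Cd86 to Cd80 in each library, each per exon length (log axis), by group, in the IFNγ and IL-4 series. Libraries labelled with a peptide and IFNγ lie at 13.8–29.1, except those labelled 65–79*SE, replicates 4–6. These lie at 0.792–1.35, beside PBS of their set at 1.18–1.60.

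Among the coinhibitory ligands, Cd274 stood at 14.8, 12.6 and 13 CPM in PBS, at 128, 107 and 110.3 CPM with 65–79*SE, and at 61.8, 66.7 and 61.6 CPM with 65–79*PE. The 3 groups did not overlap, with 65–79*SE highest. Its log2 fold change against PBS was 3.12 ± 0.08 (edgeR adjusted p = 1.48e-12) with 65–79*SE and 2.27 ± 0.08 (edgeR adjusted p = 4.21e-11) with 65–79*PE, an 8.71-fold and a 4.83-fold rise.

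Pdcd1lg2, by contrast, stayed at or under 0.464 CPM in all 18 libraries of the IFNγ series and did not pass the filter on low counts. Its summed counts over 3 libraries in replicates 1–3 were 7 for PBS, 31 for 65–79*SE and 15 for 65–79*PE, so the rate with 65–79*SE was 4.05 times that in PBS (exact 95% counting interval 1.75 to 10.9, counting error only). Replicate 2 of 65–79*SE, at 0.464 CPM, was the highest of its group, the next being at 0.238 CPM. Cd276 stood at 21.1–25.1 CPM in PBS, 23.5–26.0 CPM with 65–79*SE and 28.7–34.2 CPM with 65–79*PE. The 65–79*PE libraries were above the other 6, but the log2 difference from PBS, 0.45 ± 0.09 (edgeR adjusted p = 0.000928), was under the 1.5-fold threshold.

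Cd40, the receptor for T cell help, stood at 9.57, 11.9 and 13.2 CPM in PBS, 49.8, 53.4 and 52.8 CPM with 65–79*SE and 43.6, 44.9 and 45.7 CPM with 65–79*PE. Again the peptide libraries were all above PBS, by a log2 fold change of 2.20 ± 0.10 (edgeR adjusted p = 4.60e-10) and 2.00 ± 0.10 (edgeR adjusted p = 1.83e-09). Tnfsf9 spread widely in PBS, at 33.8, 46.9 and 55.8 CPM. It lay within that range with 65–79*SE, at 39.8–43.2 CPM, and above it with 65–79*PE, at 61.7–65.5 CPM. Neither contrast with PBS was called, at log2 differences of −0.10 ± 0.13 and 0.51 ± 0.13, although the latter was called, at 0.70, without PBS replicate 3.

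Lgals9 and Icam1 were not called. Lgals9 stood at 68.2–70.7 CPM in PBS, 66.1–69.3 CPM with 65–79*SE and 52.1–57.2 CPM with 65–79*PE, the last below the others by a log2 difference of −0.30 ± 0.06 from PBS (edgeR adjusted p = 0.0007, fold under 1.5). Icam1, a gene often raised by inflammatory signals, was not raised here. It stood at 66.7, 72.0 and 66.4 CPM in PBS, 45.4, 47.4 and 48.6 CPM with 65–79*SE and 55.7, 58.3 and 63.9 CPM with 65–79*PE, in 3 ranges that did not overlap. The log2 difference of 65–79*SE from PBS was −0.51 ± 0.07 (edgeR adjusted p = 2.70e-05, fold under 1.5).

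The second question was whether the peptides differed from each other under the same IFNγ. In replicates 1–3, Cd274 was higher with 65–79*SE and Tnfsf9 was lower, and the other 7 members tested were not called. Here 6.08% of genes were called, 4.48% higher and 1.60% lower with 65–79*SE. Cd274 differed by a log2 fold change of 0.85 ± 0.07 (n = 3 against 3, edgeR adjusted p = 3.59e-06), a 1.80-fold difference, and each 65–79*SE library was above each 65–79*PE library. Tnfsf9 was lower by a log2 difference of −0.61 ± 0.13 (edgeR adjusted p = 0.00443), a 1.53-fold difference close to the threshold. It fell under the fold threshold on leaving out 65–79*SE replicate 1 or 65–79*PE replicate 3.

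For Cd86, which had the largest rise over PBS, the peptides gave a log2 difference of −0.01 with a 95% interval of −0.18 to 0.15. Cd40 differed by 0.21 (95% interval 0.01 to 0.40, edgeR adjusted p = 0.117) and Icosl by −0.31 (−0.68 to 0.06). Cd80 differed by −0.37 (−0.73 to −0.01, edgeR adjusted p = 0.126) although its ranges, 2.15–2.20 CPM and 2.41–3.05 CPM, did not overlap. Lgals9 (0.30 ± 0.06), Cd276 (−0.35 ± 0.09) and Icam1 (−0.34 ± 0.07) had adjusted p values of 0.00212, 0.0115 and 0.0025 in edgeR but folds under 1.5. Without the fold threshold 5 members passed, 2 higher and 3 lower with 65–79*SE. At an unadjusted p below 0.05 edgeR had 7 of the 9 members tested, beside 5603 of 15343 genes.

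**Figure D3:**
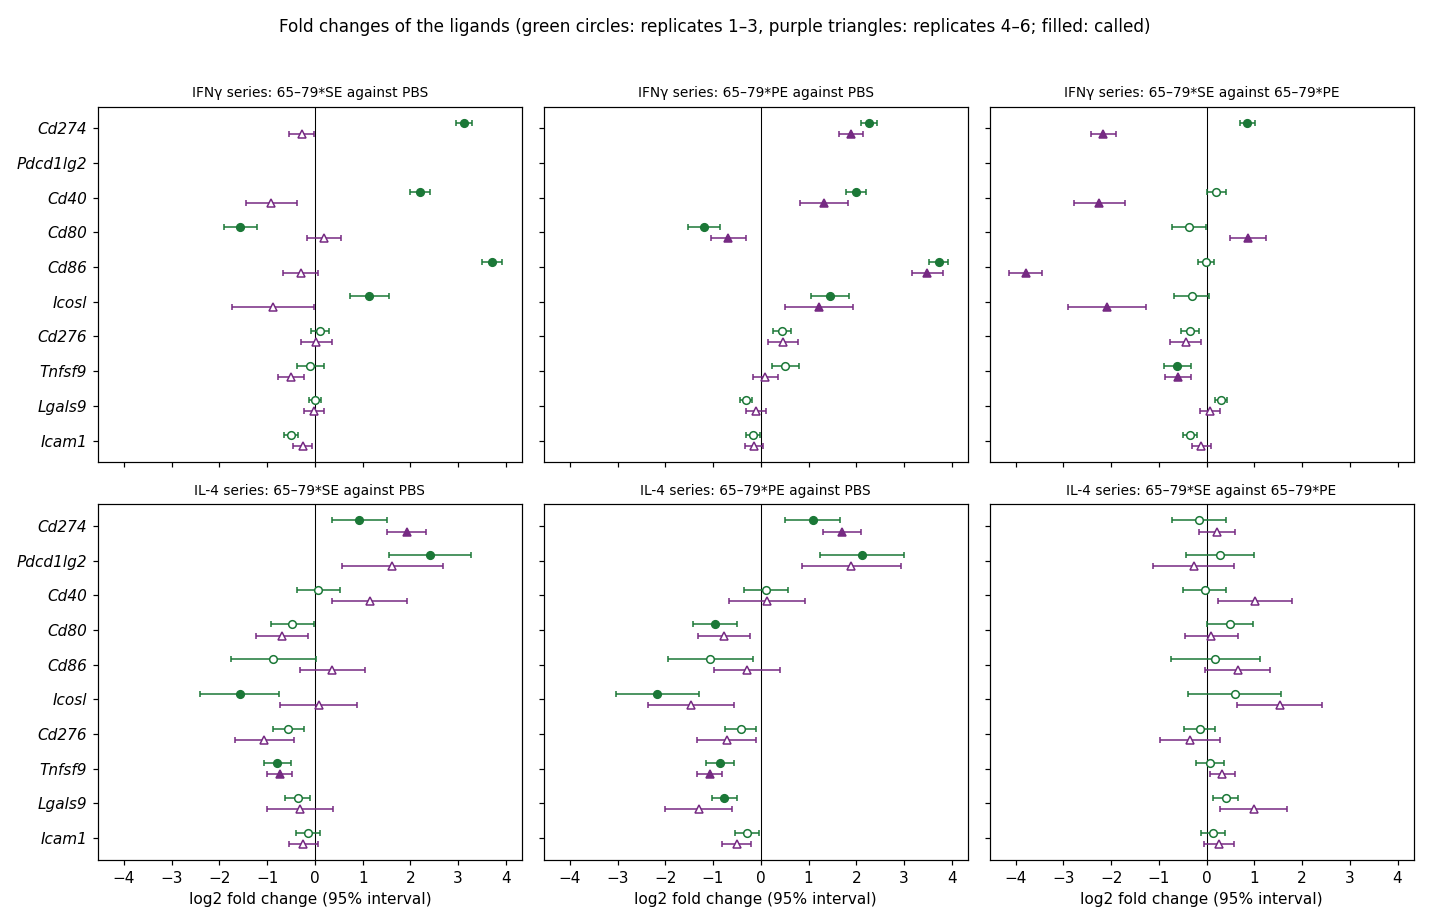
Log2 fold changes with 95% intervals (edgeR) of the members in each contrast and each set of replicates. The contrast of 65–79*SE with PBS under IFNγ lies at 3.12 for Cd274 in replicates 1–3 and at −0.28 in replicates 4–6, whereas that of 65–79*PE lies at 2.27 and 1.88.

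For the later-numbered IFNγ libraries, replicates 4–6, the 65–79*PE peptide again gave 4 members higher than PBS and 1 lower, where 10.8% of 15563 genes were called (6.16% higher and 4.66% lower), and the 3 libraries labelled 65–79*SE gave 0 of 9, where 0.72% were called. In that contrast 5 members and 2680 genes had an unadjusted p below 0.05 in edgeR, and DESeq2 also called 0 members. Cd274 stood at 20.2, 18.6 and 25.9 CPM in PBS, at 17.3, 19.5 and 16.8 CPM in the libraries labelled 65–79*SE and at 73.3, 83.9 and 82.1 CPM with 65–79*PE. The first 2 groups overlapped and 65–79*PE was above both. Cd86 stood at 5.85, 6.09 and 7.93 CPM in PBS, at 3.96, 5.70 and 6.31 CPM in the libraries labelled 65–79*SE and at 82.1, 68.9 and 73.0 CPM with 65–79*PE. Again PBS and the libraries labelled 65–79*SE overlapped, far below 65–79*PE.

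With 65–79*PE, Cd86 rose by a log2 fold change of 3.49 ± 0.15 (edgeR adjusted p = 8.72e-09), Cd274 by 1.88 ± 0.12 (edgeR adjusted p = 2.06e-07) and Cd40 by 1.33 ± 0.23 (edgeR adjusted p = 0.0012). Icosl, at 0.866–1.97 CPM in PBS and 2.80–4.07 CPM with 65–79*PE, rose by 1.22 ± 0.33, and this call was lost without PBS replicate 4 or without 65–79*PE replicate 5. Cd80, at 4.19–5.02 CPM in PBS and 2.54–3.26 CPM with 65–79*PE, fell by 0.68 ± 0.17, and that call was lost without 65–79*PE replicate 6. Cd40 in PBS spread from 16 and 18.6 to 36.2 CPM, the last in replicate 6, and the libraries labelled 65–79*SE, at 11.8–13.5 CPM, were below all 3, a log2 difference of −0.92 ± 0.24 that was not called (edgeR adjusted p = 0.0848) but was, at −1.14, without PBS replicate 4. Tnfsf9 against PBS, −0.50 ± 0.13 in those libraries, was called at −0.67 without their replicate 4.

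Between the peptides in this set, 1 member was higher and 5 lower in the libraries labelled 65–79*SE, where 13.8% of genes were called (5.91% higher and 7.9% lower). Cd86 was lower by a log2 difference of −3.79 ± 0.16, Cd40 by −2.25 ± 0.25, Cd274 by −2.16 ± 0.12 and Icosl by −2.09 ± 0.38, and Cd80 was higher by 0.87 ± 0.17 (edgeR adjusted p at most 0.00245 for each). The libraries labelled 65–79*SE were at the level of PBS in IFNγ response genes too, so this contrast holds the missing response to IFNγ along with the peptide and these cannot be told apart. Tnfsf9 was lower as well, at 32.1, 25.4 and 21.9 CPM against 38.7, 41.6 and 40.0 CPM, without overlap. Its log2 difference was −0.60 ± 0.13 (edgeR adjusted p = 0.00368), and the fold dropped under 1.5 without 65–79*SE replicate 5 or 6 or without 65–79*PE replicate 5.

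The difference between the replicate sets was then tested itself, in all 18 libraries. The change with 65–79*SE against PBS differed for 5 of 9 members, where 35.7% of 16845 genes differed at an adjusted p below 0.05 (18.9% upward and 16.8% downward). It was smaller in replicates 4–6 by a log2 value of −3.99 ± 0.20 for Cd86, −3.38 ± 0.16 for Cd274, −3.09 ± 0.29 for Cd40 and −2.0 ± 0.44 for Icosl, and for Cd80 it was shifted upward by 1.77 ± 0.23. The change with 65–79*PE against PBS differed for 0 of 9 members, where 11.5% of genes differed (7.87% upward and 3.58% downward). In that test 4 members and 4410 genes had an unadjusted p below 0.05 in edgeR, and DESeq2 called 0 members. For Cd86 under 65–79*PE the shift between sets was −0.19, with a 95% interval of −0.59 to 0.20. Between the peptides 5 members differed by set (28.8% of genes, 12.4% upward and 16.4% downward), whereas Tnfsf9 had a shift of −0.01 ± 0.20. A fit of all 6 replicates at once, with a term for the set, gave Cd274 a log2 difference between peptides of −0.30 (edgeR adjusted p = 0.738), the opposite sign to replicates 1–3.

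Under IL-4 the members behaved otherwise: Cd274 was the member higher in every contrast with PBS, Pdcd1lg2 became measurable, and Tnfsf9 was lower throughout. In replicates 1–3, 65–79*SE with IL-4 gave 2 members higher and 2 lower than PBS, where 6.44% of 12350 genes were called (3.07% higher and 3.37% lower), and 65–79*PE with IL-4 gave 2 higher and 4 lower, where 3.95% were called (2.31% higher and 1.64% lower). For replicates 4–6 each peptide gave 1 higher and 1 lower, where 1.05% of 13472 genes were called for 65–79*SE (0.779% higher and 0.267% lower) and 2.24% for 65–79*PE (1.06% higher and 1.18% lower). Pdcd1lg2, which could pass the filter on low counts through the peptide groups alone, is 1 of the 2 higher members in replicates 1–3. The contrasts within a set share their 3 PBS libraries.

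**Figure D4:**
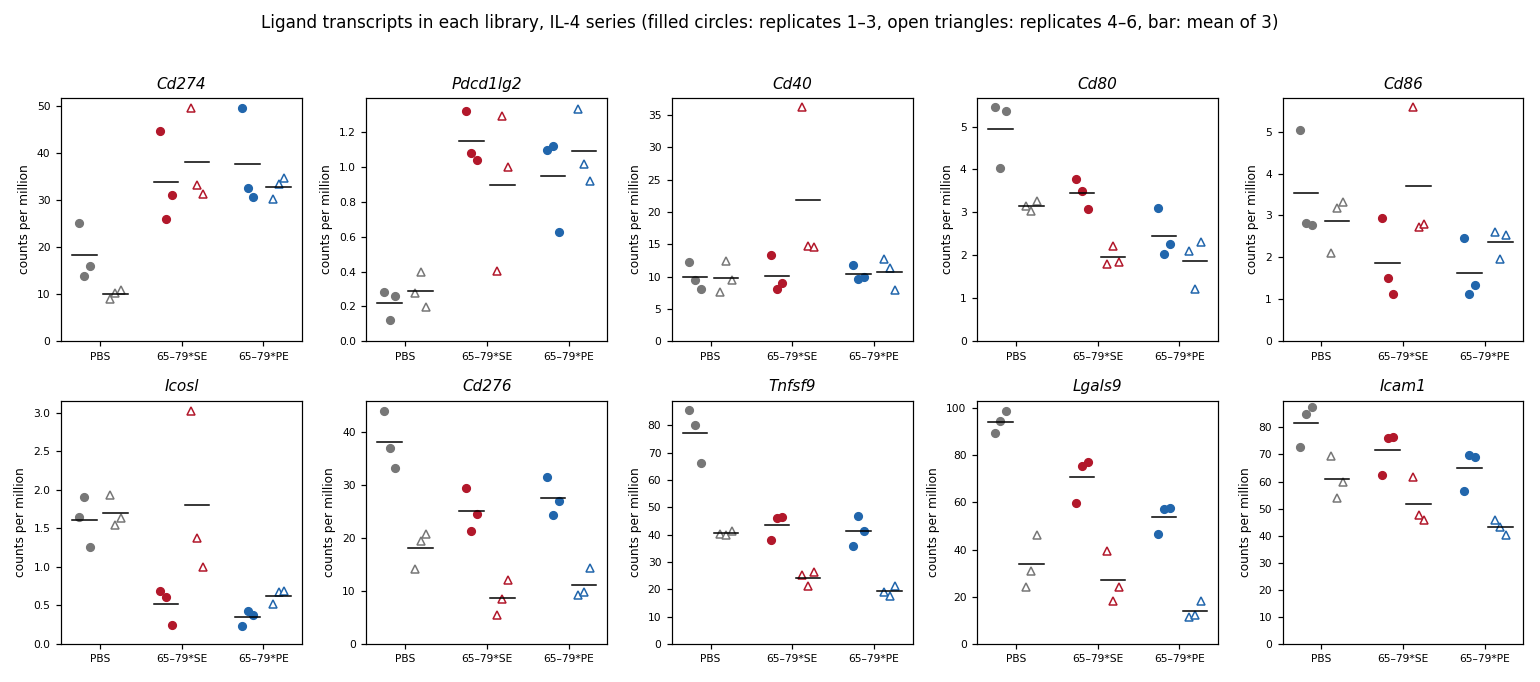
Levels (CPM, linear axis) of the 10 genes in each of the 18 libraries of the IL-4 series, by group, with replicates 1–3 and 4–6 drawn apart. Pdcd1lg2 was 0.119–0.399 CPM in PBS and 0.405–1.34 CPM with either peptide and IL-4, and Tnfsf9 was lower than PBS of its own set in all 12 peptide libraries.

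Cd274 in replicates 1–3 stood at 25.1, 13.8 and 16 CPM in PBS, at 44.6, 25.9 and 31.1 CPM with 65–79*SE and at 49.6, 32.6 and 30.6 CPM with 65–79*PE. Replicate 1 was the highest library in each of these groups, and no peptide library was below PBS. Its log2 fold changes were 0.93 ± 0.26 (edgeR adjusted p = 0.0334) and 1.08 ± 0.26 (edgeR adjusted p = 0.0293). Leaving out PBS replicate 2 or 3 or any 1 peptide replicate of the contrast ended these calls. The later set had it at 8.87, 10.3 and 10.9 CPM in PBS, at 49.6, 33.2 and 31.3 CPM with 65–79*SE and at 30.2, 33.4 and 34.6 CPM with 65–79*PE. The 6 peptide libraries were all above PBS, by a log2 fold change of 1.92 ± 0.18 (edgeR adjusted p = 0.00072) and 1.70 ± 0.18 (edgeR adjusted p = 0.00141).

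Pdcd1lg2 in replicates 1–3 stood at 0.281, 0.119 and 0.259 CPM in PBS, at 1.32, 1.08 and 1.04 CPM with 65–79*SE and at 1.10, 1.12 and 0.627 CPM with 65–79*PE. All peptide libraries were above PBS at these low levels, which rest on 17, 85 and 70 counts in all. The gene rose by a log2 fold change of 2.41 ± 0.39 (edgeR adjusted p = 0.00536) and 2.13 ± 0.40 (edgeR adjusted p = 0.0116), the latter lost without PBS replicate 2. PBS held 7, 3 and 7 counts in this set and 5, 8 and 4 in replicates 4–6. The gene could thus pass the filter on low counts through the peptide groups alone, and its tests in both sets are a description only. Its levels in replicates 4–6 were 0.276, 0.399 and 0.198 CPM in PBS, 0.405, 1.29 and 1.00 CPM with 65–79*SE and 1.34, 1.02 and 0.920 CPM with 65–79*PE. The peptide libraries were again above PBS, replicate 4 of 65–79*SE by little. The log2 fold changes, 1.62 ± 0.48 and 1.90 ± 0.46, were not called (edgeR adjusted p = 0.133 and 0.0606), but without 65–79*SE replicate 4 they were 1.97 (edgeR adjusted p = 0.0421) and 1.91 (edgeR adjusted p = 0.0127).

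Tnfsf9 in replicates 1–3 stood at 85.7, 80.2 and 66.3 CPM in PBS, at 37.9, 46.1 and 46.5 CPM with 65–79*SE and at 35.7, 46.7 and 41.4 CPM with 65–79*PE. Its levels in replicates 4–6 were 40.1, 39.7 and 41.5 CPM, then 25.1, 21.3 and 26.3 CPM, then 19.0, 17.7 and 21.1 CPM. In both sets PBS was above all peptide libraries. The gene fell by 0.79 ± 0.13 and 0.86 ± 0.13 on the log2 scale in replicates 1–3, and by 0.74 ± 0.12 and 1.07 ± 0.12 in replicates 4–6, with 65–79*SE first and 65–79*PE after it (edgeR adjusted p = 0.00614, 0.00424, 0.0149 and 0.00144). The call for 65–79*SE in replicates 4–6 was lost without any 1 of the PBS replicates or without 65–79*SE replicate 5.

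The costimulatory members were lower or unchanged in call under IL-4. Icosl stood at 1.26–1.90 CPM in PBS replicates 1–3, 0.250–0.681 CPM with 65–79*SE and 0.227–0.430 CPM with 65–79*PE, and fell by 1.58 ± 0.38 and 2.17 ± 0.40 on the log2 scale (edgeR adjusted p = 0.0185 and 0.0105). The former call was lost without PBS replicate 2 or 65–79*SE replicate 2 or 3, and the latter without PBS replicate 2 or 65–79*PE replicate 3. It was, in replicates 4–6, 1.54–1.93 CPM in PBS, 1.00–3.01 CPM with 65–79*SE and 0.514–0.690 CPM with 65–79*PE, with no call. Cd80 fell by 0.96 ± 0.21 with 65–79*PE in replicates 1–3 (edgeR adjusted p = 0.0211), from 4.04–5.45 CPM to 2.02–3.10 CPM, a call lost without PBS replicate 3 or 65–79*PE replicate 2 or 3. Cd86 stayed between 1.12 and 5.58 CPM in all 18 libraries and was not called, except at −1.36 for 65–79*SE in replicates 1–3 without 65–79*SE replicate 1. The ratio of Cd86 to Cd80 per exon length stayed between 0.369 and 1.65 in 17 libraries and was 3.14 in 65–79*SE replicate 4.

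Of the remaining members, Lgals9 fell by 0.76 ± 0.12 on the log2 scale with 65–79*PE in replicates 1–3 (edgeR adjusted p = 0.00423), from 89.3–98.8 CPM in PBS to 46.5–57.8 CPM. It was, in replicates 4–6, 24.2–46.4 CPM in PBS, 18.4–39.3 CPM with 65–79*SE and 11.2–18.1 CPM with 65–79*PE, and the last difference, −1.30 ± 0.32, was not called (edgeR adjusted p = 0.0606). Cd276 stood at 33.2–44.0 CPM in PBS, 21.2–29.4 CPM with 65–79*SE and 24.4–31.4 CPM with 65–79*PE in replicates 1–3, without overlap with PBS but under the fold threshold, which 65–79*SE passed, at −0.68, without its replicate 1. Its ranges in replicates 4–6 were 14.2–20.8, 5.49–12 and 9.15–14.4 CPM, not called. Icam1 ranged from 40.3 to 87.5 CPM over the series and Cd40 from 7.55 to 36.2 CPM, and neither was called.

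A single library stood apart from the others of its set, replicates 4–6. The library of 65–79*SE with IL-4, replicate 4, held Cd40 at 36.2 CPM (14.7 and 14.6 CPM in replicates 5 and 6), Cd86 at 5.58 CPM (2.74 and 2.80), Icosl at 3.01 CPM (1.37 and 1.00) and Cd274 at 49.6 CPM (33.2 and 31.3). Its mean log2(CPM + 1) over the 14 IFNγ response genes was 2.78, against 2.32 and 2.37 in replicates 5 and 6. PBS of that set held 2.37–2.51 and 65–79*PE 2.21–2.29. Replicates 1–3 of 65–79*SE with IL-4 held 2.69–2.77, so the value was high within its set only. Over the 12 IL-4 response genes replicate 4 held a mean of 1.65, against 1.84 and 1.90 in replicates 5 and 6. Its 8 macrophage markers summed to 3340 CPM, against 4650 and 5184 CPM. Without this library 65–79*PE against PBS in replicates 4–6 also called Icosl (−1.45, edgeR adjusted p = 0.0114) and Lgals9 (−1.30, edgeR adjusted p = 0.0169), and the cause was not tested.

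Between the peptides under IL-4, 0 of 10 members and 0 genes in all were called in either set of replicates. At an unadjusted p below 0.05 edgeR had 2 members and 557 genes in replicates 1–3 and 4 members and 1055 genes in replicates 4–6, and DESeq2 called 0 members in either set. For Cd274 the log2 difference between the peptides was −0.15 (95% interval −0.72 to 0.41) and 0.22 (−0.16 to 0.60), for Pdcd1lg2 0.28 (−0.44 to 0.99) and −0.27 (−1.12 to 0.57), and for Tnfsf9 0.08 (−0.22 to 0.37) and 0.33 (0.07 to 0.59), in replicates 1–3 and 4–6. Lgals9 was higher with 65–79*SE by 0.40 (0.14 to 0.65) and 0.99 (0.28 to 1.69), with edgeR adjusted p of 0.878 and 0.593. In replicates 4–6 Icosl was higher with 65–79*SE by 1.53 (0.64 to 2.41) and Cd40 by 1.02 (0.24 to 1.80), both with an edgeR adjusted p of 0.593, and replicate 4 of 65–79*SE was the highest library for both. Cd80 differed by 0.49 (0.01 to 0.96, edgeR adjusted p = 0.878) in replicates 1–3. No contrast differed between the replicate sets for any member under IL-4. Of 14183 genes, 4.39% differed for 65–79*SE against PBS (3.47% upward and 0.917% downward). For 65–79*PE against PBS 0.00705% did (1 gene, upward), and between the peptides 0 genes did. In the same order, 4, 0 and 1 members had an unadjusted p below 0.05 in edgeR, beside 3421, 1488 and 444 genes. DESeq2 called 2 members for 65–79*SE against PBS.

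Whether the difference between the peptides depended on the cytokine was tested on the 12 peptide libraries of each set, as the difference under IFNγ minus that under IL-4. In replicates 1–3, 4 members differed, where 7.09% of 15204 genes did (3.13% upward and 3.96% downward). The value was 0.97 ± 0.25 for Cd274, −0.89 ± 0.25 for Cd80, −0.72 ± 0.14 for Tnfsf9 and −0.52 ± 0.14 for Icam1 (edgeR adjusted p = 0.0357, 0.0494, 0.00993 and 0.0431). Leaving out any 1 of the 6 IFNγ libraries, or replicate 2 or 3 of 65–79*SE with IL-4, ended the calls of Cd274, Cd80 and Icam1, as did leaving out replicate 1 of 65–79*PE with IL-4 for Cd274 and Icam1 and replicate 2 or 3 for Cd80 and Icam1. Tnfsf9 passed without any 1 library. In replicates 4–6, where the libraries labelled 65–79*SE with IFNγ lack the response to IFNγ, 5 members differed (16.8% of 15544 genes, 7.66% upward and 9.17% downward): Cd86 by −4.44 ± 0.36, Icosl by −3.61 ± 0.59, Cd40 by −3.25 ± 0.42, Cd274 by −2.37 ± 0.22 and Tnfsf9 by −0.92 ± 0.19. Of the members past the threshold in both sets, Cd274 had opposite signs and Tnfsf9 the same sign, and the series and its table are 1 factor that cannot be told apart.

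Per kilobase of exon, the order of the levels in PBS replicates 1–3 of the IFNγ series began with Tnfsf9 at 35.3 ± 8.60 CPM per kb (SD, n = 3) and Lgals9 at 32.6 ± 0.601, whose ranges overlapped. Icam1 followed at 15.7 ± 0.714, Cd276 at 6.42 ± 0.564, then Cd274 at 3.72 ± 0.316 and Cd40 at 3.39 ± 0.539, whose ranges overlapped. Cd80 at 1.77 ± 0.307, Cd86 at 0.850 ± 0.119, Icosl at 0.368 ± 0.0807 and Pdcd1lg2 at 0.0357 ± 0.0358 CPM per kb closed the order. With 65–79*SE and IFNγ in that set, Tnfsf9 at 32.3 ± 1.31, Lgals9 at 31.9 ± 0.835 and Cd274 at 31.8 ± 3.21 CPM per kb overlapped at the top, so that Cd274 moved from the fifth place to a level not separable from the first. With 65–79*PE and IFNγ, Cd274 came after Tnfsf9 and Lgals9, at 17.5 ± 0.793 CPM per kb, without overlap with Lgals9 above or Icam1 below. Per exon length, Cd274 exceeded Pdcd1lg2 by a factor of 45.3–286 in PBS and 125–420 with 65–79*SE and IFNγ in that set, where the small counts of Pdcd1lg2 set the width, and by 13–26.5 with either peptide and IL-4 in replicates 1–3. In replicates 4–6 of the IL-4 series this factor was 12.3–20.3 with 65–79*PE and 13.9–66.3 with 65–79*SE, the highest in replicate 4, and PBS of that series held 14–63 over both sets.

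The other genes of the same system were followed through lists of ligands, receptors and regulators. Of 30 other ligands of T cells, 19 passed the filter in the IFNγ series. In replicates 1–3, 4 rose and 1 fell with 65–79*SE, and 4 rose and 2 fell with 65–79*PE, where 22.8% and 19.8% of all genes were called in either direction. H2-T23, which encodes the nonclassical class I molecule Qa-1 that presents to NK and T cell receptors, rose by a log2 fold change of 1.87 ± 0.07 and 2.08 ± 0.07, from 106 CPM in PBS to 382 and 438 CPM. Tnfsf13b, the B cell survival factor BAFF, rose by 1.50 ± 0.19 with 65–79*PE. Between the peptides 0 of 19 were called, where 6.08% of all genes were. In replicates 4–6, 6 rose and 2 fell with 65–79*PE, among them Tnfrsf14 (HVEM, the ligand of BTLA) by 2.00 ± 0.20, and 0 were called in the libraries labelled 65–79*SE against PBS, where 10.8% and 0.72% of all genes were called.

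In the IL-4 series 18 of the 30 passed the filter. With 65–79*SE 3 and with 65–79*PE 2 rose in replicates 1–3, where 6.44% and 3.95% of all genes were called, and 1 rose with each peptide in replicates 4–6, where 1.05% and 2.24% were. Lgals3, which encodes galectin-3, was called in all 4 contrasts with PBS, at 0.98 ± 0.10 and 0.85 ± 0.10 in replicates 1–3 and 0.66 ± 0.10 and 0.67 ± 0.10 in replicates 4–6. Lgals1, for galectin-1, rose by 0.71 ± 0.14 and 0.64 ± 0.14 in replicates 1–3. These galectins rose in the set in which Lgals9 fell with 65–79*PE.

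Of 18 receptors and other partners of these molecules, 10 passed the filter in replicates 1–3 of the IFNγ series, Ctla4, Pdcd1 and Cd40lg not among them. With 65–79*SE 4 rose and 3 fell, and with 65–79*PE 4 rose and 4 fell, beside the same 22.8% and 19.8% of all genes. The LFA-1 subunits that bind ICAM-1 rose while Icam1 itself did not: Itgal, the αL chain, by 2.71 ± 0.10 and 2.44 ± 0.10 on the log2 scale, from 7.64 CPM to 49.1 and 40.5 CPM, and Itgb2, the β2 chain, by 1.29 ± 0.06 and 0.63 ± 0.06. Tnfrsf9, the receptor of Tnfsf9, fell by 0.75 ± 0.24 with 65–79*SE and by 2.58 ± 0.27 with 65–79*PE, from 13.2 ± 5.30 CPM (SD, n = 3) to 7.69 ± 0.354 and 2.14 ± 0.209 CPM. Tnfrsf9 was thus higher with 65–79*SE than with 65–79*PE by 1.83 ± 0.27 (edgeR adjusted p = 0.000337), opposite in sign to its ligand. In replicates 4–6 it was higher by 2.85 ± 0.48 (edgeR adjusted p = 0.000735) in the libraries labelled 65–79*SE. Those held 5.79 ± 4.01 CPM (SD, n = 3), against 0.765 ± 0.301 CPM with 65–79*PE and 9.25 ± 2.70 CPM in PBS. They lack the response to IFNγ, so in this contrast the missing response and the peptide cannot be told apart. Cd28, the receptor of CD80 and CD86, fell by 1.18 ± 0.23 with 65–79*SE and by 1.66 ± 0.24 with 65–79*PE in replicates 1–3. It went from 7.10 CPM in PBS to 3.06 and 2.18 CPM. In the libraries labelled 65–79*SE, replicates 4–6, Cd28 was higher than PBS by 0.85 ± 0.18 (edgeR adjusted p = 0.0481), at 22.3 against 12.4 CPM. Havcr2, which encodes TIM-3, the receptor of galectin-9, rose by 0.72 ± 0.07 with both peptides in replicates 1–3. In the IL-4 series Itgal, at −1.39 ± 0.21 and −1.41 ± 0.21 in replicates 1–3, was the receptor called.

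Of 31 regulators of these genes, 13 rose and 1 fell with 65–79*SE and IFNγ in replicates 1–3, and 8 rose and 3 fell with 65–79*PE, again beside 22.8% and 19.8% of all genes. Irf1, an IFNγ-induced regulator of Cd274, rose by 2.19 ± 0.08 and 2.83 ± 0.08. It stood at 15.2 ± 0.801 CPM (SD, n = 3) in PBS, 67.8 ± 4.38 CPM with 65–79*SE and 105 ± 9.70 CPM with 65–79*PE. Irf1 was thus lower with 65–79*SE than with 65–79*PE, opposite in direction to Cd274 in that set. Ciita, the master regulator of MHC class II, went from 0.0197 CPM in PBS, under the limit for a count of 0, to 8.85 and 13.1 CPM. Between the peptides 4 were higher and 1 lower with 65–79*SE, beside 6.08% of all genes, with Irf4 at 1.95 ± 0.17, Myc at 1.88 ± 0.21, Traf1 at 0.92 ± 0.15 and Jak1 at 0.78 ± 0.09. In the libraries labelled 65–79*SE, replicates 4–6, 0 of 31 were called against PBS, whereas 7 rose and 4 fell with 65–79*PE, beside 0.72% and 10.8% of all genes. In the IL-4 series, where 6.44% and 3.95% of all genes were called, 2 rose and 1 fell with 65–79*SE in replicates 1–3 and 2 rose with 65–79*PE, Irf4 among the latter by 1.04 ± 0.28.

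The genes beside Cd274 and Icam1 on their chromosomes were followed too. Of 8 neighbours of Cd274, 6 passed the filter and 1 was called in the contrasts with PBS: Insl6, which encodes an insulin-like peptide, rose by 1.30 ± 0.09 and 1.42 ± 0.09 in replicates 1–3 for 65–79*SE and then 65–79*PE, from 5.86 to 14.1 and 15.3 CPM. Of 7 neighbours of Icam1, 5 passed and 0 were called in the contrasts with PBS in that set, where 22.8% and 19.8% of all genes were called.

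Over the 18 libraries of the IFNγ series, each centred on the mean of its replicate set, the gene most like Cd274 was Slamf7 (Pearson r = 0.993 over libraries), that most like Cd40 was Fcgr1 (0.995), and that most like Cd86 was Tap1 (0.995). Cd274 itself had r = 0.96 with Cd86, 0.95 with Cd40 and −0.93 with Cd80. The libraries fall into those with and those without the response to IFNγ, and these values, given as a description, rest on that division. For the members with smaller changes the closest genes were less alike, with r = 0.918 for Tnfsf9 and Ano10, 0.873 for Lgals9 and Flcn and 0.868 for Cd276 and Rgs14.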

How the data were processed

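RNA was measured in 36 libraries of RAW264.7 cells, which the study states were prepared with a stranded mRNA kit. The deposited tables hold raw counts per gene. The authors counted uniquely mapped single-end reads with featureCounts against Gencode M12 on GRCm38.p5; the aligner and the strand setting are not given in the sources used here. The authors' notes also name DESeq2 1.16.1 in R 3.4.1. From the counts, CPM was computed with TMM factors over the 18 libraries of a series, and per kilobase with exon lengths of GENCODE M21 (95.3% of names matched). edgeR 4.0.16 in R 4.3.3 fitted each set of 9 libraries with filterByExpr and a quasi-likelihood test, with Benjamini-Hochberg adjustment over all genes tested. A call needed an adjusted p below 0.05 and a fold above 1.5; differences between sets and between series needed the adjusted p alone. Errors of log2 fold changes are standard errors from the F statistic. The main fit kept replicates 1–3 and 4–6 apart and the fit of all 6 was an alternative, as were DESeq2 1.42.0, RLE size factors, other filters, protein-coding genes only, a replicate block and leaving out each library. Members and lists were chosen with earlier results of these data known. All 10 members are named. From the other lists, up to 4 called genes per comparison with the largest change and a mean of at least 5 CPM in the higher group were named; the genes tied to a member by role but outside that rule were chosen after their values were seen. The scripts were tested on simulated data. The study states biological replicates, but the labels do not say which were separate cultures. Values of 1 regulator are not reported here.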

Additional observations from a re-analysis of the deposited data

Results flagged for a closer look

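Of 60 sets of 6 libraries (10 members in 6 groups), 5 held a library farther from the rest than Dixon's test allows, where chance gives about 1 in 20. These were Cd274 at 49.6 CPM in 65–79*PE with IL-4 replicate 1 (next 34.6), Pdcd1lg2 at 0.464 CPM in 65–79*SE with IFNγ replicate 2 (next 0.238), Pdcd1lg2 at 0.405 CPM in 65–79*SE with IL-4 replicate 4 (next 1.00), Cd40 at 36.2 CPM in PBS of the IFNγ series replicate 6 (next 18.6), and Cd40 at 36.2 CPM in 65–79*SE with IL-4 replicate 4 (next 14.7). Replicate 4 of 65–79*SE with IL-4 was thus far from its group for both a gene that was low in it and a gene that was high.

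A test of the difference itself separated replicates 4–6 from 1–3 in the IFNγ series for 5 members. Against PBS the shift of 65–79*SE was −3.38 for Cd274, −3.09 for Cd40, 1.77 for Cd80, −3.99 for Cd86 and −2.0 for Icosl on the log2 scale, and between the peptides it was −3.03, −2.47, 1.22, −3.79 and −1.81 (edgeR adjusted p at most 0.00239). The libraries that enter as 65–79*SE in replicates 4–6 are those without the response to IFNγ.

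The difference between the peptides also differed between the series for some members, and the series and its table are 1 factor that cannot be told apart. In replicates 1–3 the value under IFNγ minus that under IL-4 was 0.97 for Cd274, −0.89 for Cd80, −0.72 for Tnfsf9 and −0.52 for Icam1. Leaving out 1 library at a time, 1 to 5 members passed the threshold in that set, against 4 in the full fit. In replicates 4–6 the value was −2.37 for Cd274, −3.25 for Cd40, −4.44 for Cd86, −3.61 for Icosl and −0.92 for Tnfsf9. The libraries without the response to IFNγ enter these values, so the missing response and the peptide cannot be told apart in them. Of the members past the threshold in both sets, Cd274 had opposite signs and Tnfsf9 the same sign.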

How the results depend on the processing

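Counts of members called are given as the reported value and then the alternative, and the cause of each shift was not tested. Except where 1 library is left out, no share of all genes stands beside them, so they describe the members only. Under DESeq2 the counts in the IL-4 series, replicates 4–6, went from 2 to 4 for 65–79*SE and from 2 to 5 for 65–79*PE against PBS, and members differing between sets for 65–79*SE against PBS from 0 to 2. Without a filter on low counts these 3 became 5, 6 and 4, the peptide contrast of that set went from 0 to 3 and its difference between sets from 0 to 1, and in the IFNγ series 65–79*SE against PBS in replicates 4–6 went from 0 to 1 and the set difference of 65–79*PE against PBS from 0 to 2. Protein-coding genes alone gave 1 in the last. At least 10 counts in every library gave 2 in place of 4 for 65–79*SE with IL-4, replicates 1–3. Without a fold threshold, replicates 1–3 under IFNγ gave 8 in place of 5 for 65–79*PE against PBS and 5 in place of 2 between the peptides. A fit of all 18 libraries as 6 cell means gave 1 in place of 0 for 65–79*SE under IFNγ and 5 in place of 2 for 65–79*PE under IL-4, both in replicates 4–6. RLE size factors moved no count by over 1.5 times.

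A fit of all 6 replicates with a term for the set mixes libraries with and without the response to IFNγ. It gave 2 members for 65–79*SE against PBS (5 and 0 in the sets) and 1 between the peptides (2 and 6), and under IL-4, against the reported 2 in replicates 4–6, it gave 5 for 65–79*SE and 7 for 65–79*PE. In it Cd274 turned sign between the peptides, −0.30 against 0.85 in replicates 1–3, and Cd86 and Cd274 turned sign for 65–79*SE against PBS in replicates 4–6, at 2.14 and 1.70 (edgeR adjusted p = 0.0329 and 0.0372).

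Replicate numbers are shared across groups. Same-numbered libraries did not all deviate together: the lowest correlation of their deviations from the group means was −0.14 and −0.06 in the IFNγ series and 0.08 and −0.12 in the IL-4 series (highest 0.40 and 0.42 in the latter), under the 0.1 asked of every pair, and in no set did every library correlate best with its own number. With a replicate block the count went from 0 to 1 for 65–79*SE with IFNγ and from 2 to 5 for 65–79*PE with IL-4, both against PBS in replicates 4–6, and from 0 to 3 for the set difference of 65–79*SE with IL-4.

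Leaving out 1 library at a time, the members called under IFNγ were 5 to 5 (65–79*SE against PBS), 5 to 6 (65–79*PE against PBS) and 1 to 2 (between peptides) in replicates 1–3, and 0 to 1, 4 to 6 and 5 to 6 in replicates 4–6. Under IL-4 they were 2 to 5, 3 to 6 and 0 to 0, and then 1 to 3, 2 to 5 and 0 to 0. Beside these, the genes called in all under IFNγ were 3319 to 3609, 2743 to 3262 and 709 to 1061 in replicates 1–3. In replicates 4–6 they were 2 to 318, 1441 to 1814 and 1902 to 2223. The genes called under IL-4 were 329 to 1572, 215 to 643 and 0 to 0, and then 50 to 138, 69 to 574 and 0 to 0. Members differing between sets were 5 to 6, 0 to 1 and 5 to 6 under IFNγ and 0 to 3, 0 to 0 and 0 to 0 under IL-4, and between series 1 to 5 and 5 to 6. Genes differing between sets were 5321 to 6165, 1007 to 1978 and 3961 to 5188 under IFNγ. They were 0 to 2012, 1 to 21 and 0 to 0 under IL-4, and between series 365 to 3154 and 1879 to 2906. Depth limits Pdcd1lg2 in the IFNγ series, which rests on at most 31 counts over 3 libraries.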

Other observations

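The macrophage markers moved with the members in part. Adgre1, which encodes the surface receptor F4/80, rose by a log2 fold change of 1.41 ± 0.09 with 65–79*SE and IFNγ in replicates 1–3 and was higher by 1.02 ± 0.09 than with 65–79*PE (edgeR adjusted p = 1.77e-08 and 4.59e-06). With 65–79*PE and IFNγ it rose by 1.25 ± 0.07 in replicates 4–6, from 56.9 to 136 CPM. In the IL-4 series it rose with 65–79*PE in replicates 1–3 by 0.65 ± 0.12 and with both peptides in replicates 4–6, by 1.00 ± 0.12 and 1.13 ± 0.12. Fcgr1, the high-affinity IgG receptor CD64, rose by 1.61 ± 0.11 and 1.55 ± 0.11 with 65–79*SE and 65–79*PE and IFNγ in replicates 1–3. Lyz2, for lysozyme, fell by 0.87 ± 0.08 with 65–79*PE in that set and was higher by 0.82 ± 0.16 than PBS in the libraries labelled 65–79*SE, replicates 4–6 (edgeR adjusted p = 0.0423). Markers of other cells were low. Lck, a kinase best known from T cells and the 1 T cell marker to reach a mean of 1 CPM, rose by 0.86 ± 0.13 and 1.00 ± 0.13 under IFNγ in replicates 1–3, whereas Cd4, at most 0.544 CPM there, fell by 2.23 ± 0.47 and 1.15 ± 0.41. Pdgfra, a receptor of fibroblasts, was higher with 65–79*SE in that set by 1.70 ± 0.37 than PBS and by 1.68 ± 0.37 than with 65–79*PE, at 0.522–1.24 CPM, and fell by 1.24 ± 0.39 with 65–79*PE in replicates 4–6. Xcr1, of dendritic cells, rose by 1.95 ± 0.42 with 65–79*PE and IFNγ in replicates 4–6, at 0.420–0.710 CPM, where Zbtb46 was not called. The part of these markers in the results was not tested.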
